A study of Homo sapiens with 10 samples.

Results

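The expression of 10 genes that handle tryptophan and the aromatic amines made from it was followed in LoVo cells, a human line from a metastasis of a colorectal adenocarcinoma. The genes were TDO2, IDO1, AFMID, KMO, KYNU, QPRT, TPH1, DDC, MAOA and MAOB. They were measured by 24 probe sets of the Affymetrix HG-U133 Plus 2.0 array, and each gene was represented by its brightest probe set, selected on the mean log2 signal over all arrays. They stand among 19775 genes with a probe set that carries a single gene symbol. The set was drawn up when the falls of TDO2 and DDC under serum starvation were already known, so it was in part chosen by that contrast, and the serum-starved minus control values of both genes are given as a description with no test. Control cells (3 arrays) grew in DMEM with 10% fetal bovine serum, penicillin and streptomycin. Serum-starved cells (3 arrays) were kept without serum (0%), and ADMA-treated cells (4 arrays) in serum-free medium with 10 μM asymmetric dimethylarginine (ADMA), a methylated arginine that inhibits nitric oxide synthases. All 3 groups were harvested after 96 h, and all are cultures of this 1 cell line. The samples are called biological replicates in the labels, and no source says whether they were separate cultures, so p-values measure the spread between these arrays. In a whole culture, fewer cells of a kind and less RNA per cell cannot be told apart.

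Tryptophan has 2 main fates in animal cells. In the kynurenine branch, TDO2 (mainly a liver enzyme) or IDO1 (induced by interferon in many tissues) opens the indole ring. AFMID then releases kynurenine, and KMO and KYNU carry it on towards quinolinate, from which QPRT leads into NAD synthesis. In the amine branch, TPH1 hydroxylates tryptophan and DDC removes the carboxyl group to give serotonin, a signal of the enterochromaffin cells of the gut. DDC also makes dopamine from DOPA. MAOA and MAOB in the outer mitochondrial membrane break these amines down. Kynurenine and several indoles are ligands of the aryl hydrocarbon receptor AHR.

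TDO2, DDC and MAOA were the members that changed, and their promoter windows are shown to give the sequence at their start sites. TDO2 lies on chromosome 4 at 155903696 to 155920406, DDC on chromosome 7 at 50458442 to 50565405 and MAOA on chromosome X at 43655006 to 43746817 (GRCh38.p14). Each window holds 250 bases before and 50 after an annotated start, as RefSeq gives it on that build, read 5′ to 3′ on the gene's strand. DDC has 2 annotated starts, and the MAOA window does not belong to the outermost start of the gene. Capitals mark matches on either strand to the TATA box TATAAA, the hepatocyte nuclear factor 1 core GTTAAT and the glucocorticoid receptor core TGTTCT. They also mark the GC box GGGCGG and TGANTCA, a looser form of the AP-1 site with any base (N) at its centre.
TDO2, chr4:155903446-155903745, plus strand: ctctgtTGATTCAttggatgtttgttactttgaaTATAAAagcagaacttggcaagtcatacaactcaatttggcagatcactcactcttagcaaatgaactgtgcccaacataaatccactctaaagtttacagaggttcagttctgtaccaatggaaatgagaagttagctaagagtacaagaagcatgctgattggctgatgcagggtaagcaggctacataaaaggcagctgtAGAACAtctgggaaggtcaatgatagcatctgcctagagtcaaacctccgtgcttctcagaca
DDC, upstream start, chr7:50565356-50565655, minus strand: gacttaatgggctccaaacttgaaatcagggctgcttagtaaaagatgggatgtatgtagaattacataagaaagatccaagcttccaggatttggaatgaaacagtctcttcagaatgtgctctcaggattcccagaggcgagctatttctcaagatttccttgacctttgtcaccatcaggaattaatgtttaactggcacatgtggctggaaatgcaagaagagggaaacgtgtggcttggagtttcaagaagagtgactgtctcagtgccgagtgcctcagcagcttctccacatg
DDC, downstream start, chr7:50561022-50561321, minus strand: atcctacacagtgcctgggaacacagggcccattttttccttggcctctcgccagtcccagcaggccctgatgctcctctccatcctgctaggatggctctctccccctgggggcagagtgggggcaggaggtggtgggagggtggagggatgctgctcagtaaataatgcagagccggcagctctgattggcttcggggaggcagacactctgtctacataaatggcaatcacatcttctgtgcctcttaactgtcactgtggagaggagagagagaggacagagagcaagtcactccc
MAOA, chrX:43656049-43656348, plus strand: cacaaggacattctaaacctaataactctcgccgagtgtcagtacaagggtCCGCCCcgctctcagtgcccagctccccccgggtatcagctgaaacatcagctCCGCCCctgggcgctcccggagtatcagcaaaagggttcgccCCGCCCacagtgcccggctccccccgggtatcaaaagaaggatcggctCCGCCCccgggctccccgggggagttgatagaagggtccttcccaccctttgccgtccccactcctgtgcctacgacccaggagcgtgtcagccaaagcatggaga

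The windows differed in base composition. The TDO2 window held 1 CpG and 41.3% G and C, and the DDC windows 3 CpGs each with 44.3 and 57.3% G and C. The MAOA window held 19 CpGs, 63.0% G and C and 4 GC boxes. Over all 35114 promoter windows of this length the median was 14 CpGs, and 45.0% held a GC box. The TDO2 window had matches to TGANTCA at -244 from the start (TGATTCA there), TATAAA at -216 and the glucocorticoid receptor core at -13. Such matches are in 7.71, 11.5 and 14.8% of all windows. No listed motif was found in the DDC windows, and the hepatocyte nuclear factor 1 core, in 6.88% of all windows, was in none of these windows.

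The signals are MAS 5.0 intensities, scaled by the authors, and are given below as deposited. Differences are on the log2 scale with the standard error (SE) of limma fitted over 12344 genes, those with a mean signal of at least 76.2. Genes are said to have risen or fallen only if they changed at least 1.2-fold with a Benjamini-Hochberg adjusted p below 0.01. These words compare groups after 96 h and not times, as ADMA was given throughout the serum-free culture. The background level of an array, taken as the 95th percentile of its 27 Bacillus control probe sets, lay between 35.0 and 70.2. Of the 10 genes 6 passed the filter on low signal, and AFMID, KMO, TPH1 and MAOB did not. In serum starvation 3 of the 6 were lower (TDO2, DDC and MAOA) and none higher, where 27.3% of all tested genes were lower and 30.3% higher. With ADMA against serum-starved cells the same 3 genes were higher and none lower, where 15.7% of all tested genes were higher and 13.8% lower. TDO2 and DDC were lower and none higher in ADMA-treated than in control cells, where 23.2% of all tested genes were lower and 26.6% higher. Since TDO2 and DDC in part defined the set, nothing is read from the first of these counts. The other comparisons share its serum-starved or control arrays, so the p-values of TDO2 and DDC in them are not free of that choice.

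**Figure D1:**
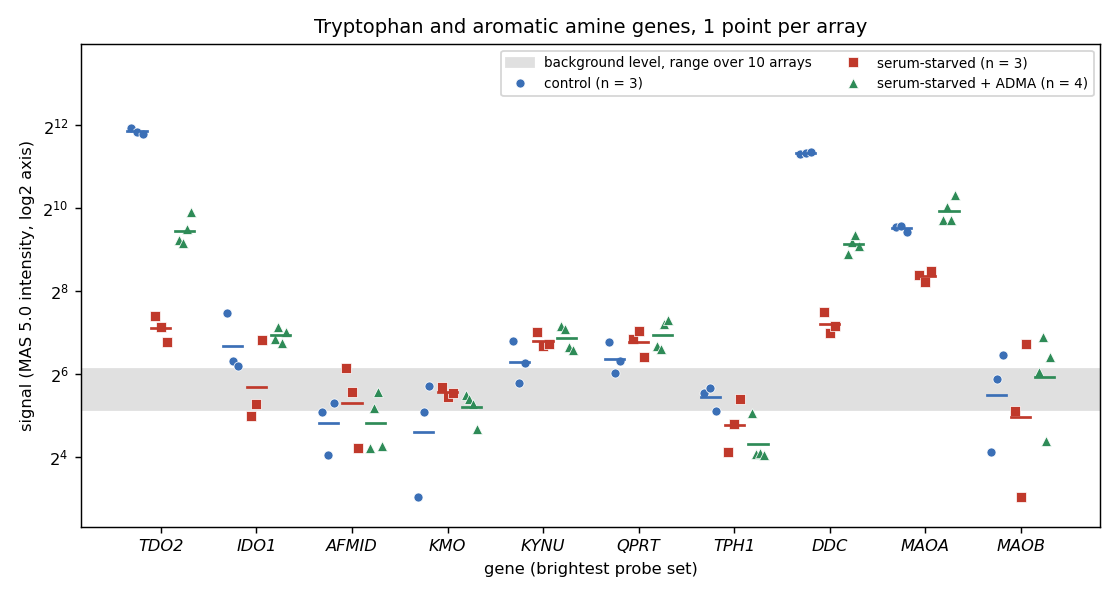
Signal of the brightest probe set of each gene (vertical, MAS 5.0 intensity on a log2 axis), with 1 point per array: circles for control (n = 3), squares for serum-starved (n = 3) and triangles for ADMA-treated cells (n = 4). Bars are means of the log2 signals, and the grey band spans the background levels of the 10 arrays, 35.0 to 70.2. TDO2, DDC and MAOA stand clear of the band in every group.

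TDO2, which opens the indole ring of tryptophan, was among the genes with the widest spread between the groups. The fall of TDO2 in serum starvation was known when it was listed, so this spread is no separate result. Its signal was 3918, 3697 and 3549 in control cells. It was 170.2, 141 and 109.8 in serum-starved cells. It was 607, 571, 723 and 959.5 in ADMA-treated cells. The 3 groups did not overlap, with ADMA-treated cells between the others. The serum-starved mean was 26.9-fold below the control mean, a log2 difference of -4.75 (SE 0.18), and 2 of the 12344 tested genes had a more negative difference. With ADMA, TDO2 rose from serum-starved cells by 2.34 (SE 0.17, limma adjusted p = 1.16e-07), and it was lower than in control cells by a log2 difference of -2.41 (SE 0.17, limma adjusted p = 1.6e-08). On the log2 scale the ADMA mean lay 49.3% of the way from the serum-starved to the control mean, a gap for which TDO2 was listed. The other probe set of TDO2 was dim. It read 110.4, 90.3 and 100.3 in control cells, above background, and lay under it on all 3 serum-starved arrays and on 3 of 4 ADMA arrays. It was at least 2.03-fold higher in control than in serum-starved cells. Such bounds set the bright group's mean log2 signal against the background level wherever the dim group lies under it.

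IDO1, the interferon-induced enzyme of the same step, was near the background level. Its signal was 179.5, 79.7 and 73.8 in control cells. It was 31.7, 39.2 and 113 in serum-starved cells. It was 116, 142, 107 and 129.7 with ADMA. The first 2 serum-starved arrays lay under background, while the third overlapped with both other groups. The log2 difference was -0.97 (SE 0.45, limma adjusted p = 0.0711) in serum starvation, 1.24 (SE 0.42, adjusted p = 0.0275) with ADMA against serum-starved cells, and 0.27 (SE 0.42, adjusted p = 0.596) with ADMA against control, and none of these passed the threshold. Without serum-starved replicate 3 the first 2 differences were -1.53 and 1.80 and passed the threshold, but both serum-starved arrays left were under their background levels of 57.3 and 41.4, so that these values have no measured level behind them. With signals under background taken at that level they were -0.66 (adjusted p = 0.145) and 0.93 (adjusted p = 0.0484) over all arrays. Centring each array on its median gave -1.36 (adjusted p = 0.00549) in serum starvation, and turned the difference between ADMA and control cells to -0.23.

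The later enzymes of the kynurenine branch were dim in all groups. KYNU, which cleaves kynurenine and its hydroxylated form, read 112, 55.5 and 77.7 in control cells. In serum-starved cells it read 129.5, 102 and 105, and with ADMA 143, 137, 101 and 96.4. All 3 groups overlapped. The log2 differences were 0.51 (SE 0.30, limma adjusted p = 0.146) in serum starvation, 0.07 (SE 0.28, adjusted p = 0.862) with ADMA against serum-starved cells and 0.58 (SE 0.28, adjusted p = 0.0847) with ADMA against control. The 3 dimmer probe sets of KYNU lay under background on each control array, and none was tested. By the first, the serum-starved mean was at least 1.86-fold above the control mean, but control replicate 1 (65.8) read above serum-starved replicate 2 (62.1). The second gave 1.40-fold, which is no lower bound, as serum-starved replicate 3 (48.3) was under background too. There control replicate 1 read 67.2, so the groups overlapped. The other probe set was under background on all 10 arrays and gives no direction.

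QPRT, which makes nicotinate mononucleotide from quinolinate, read 109.9, 64.9 and 80.1 in control cells. It read 116, 133 and 85.0 in serum-starved cells and 103, 98.4, 148 and 159 with ADMA. The groups overlapped in each comparison, and no difference passed the threshold. The log2 differences were 0.40 (SE 0.30, limma adjusted p = 0.255), 0.18 (SE 0.28, adjusted p = 0.646) and 0.58 (SE 0.28, adjusted p = 0.0877) in serum starvation, with ADMA against serum-starved cells and with ADMA against control. KMO, the kynurenine hydroxylase, read 8.20 to 52.6 over the 10 arrays and lay under background on 8 of them. Its other probe sets lay under background on 8 and on 10 arrays. AFMID, the formamidase that releases kynurenine, read 16.6 to 71.0 and lay under background on 8 of 10 arrays. Neither gene was tested, and no group difference in them was detectable at this signal.

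**Figure D2:**
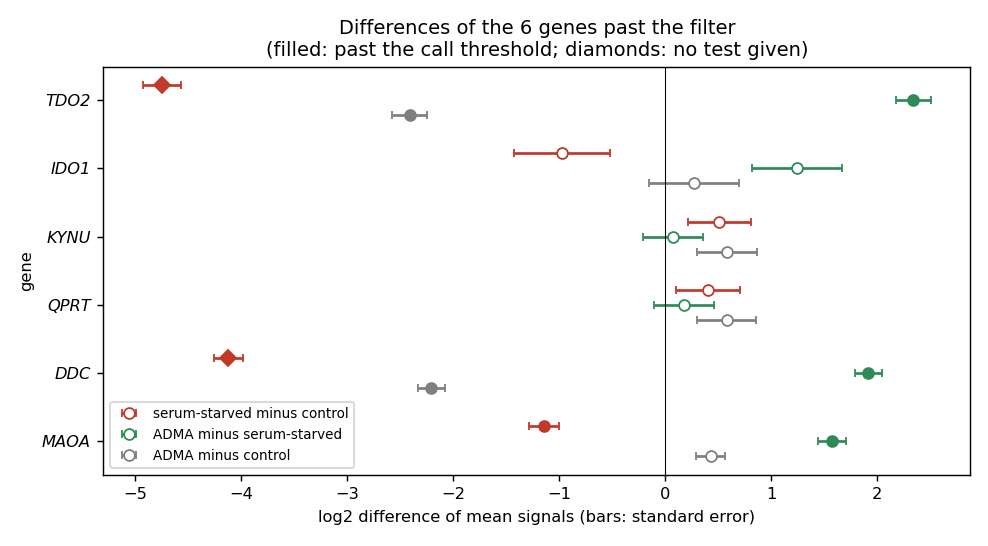
Log2 difference of mean signals (horizontal) for the 6 genes past the filter, with bars of 1 standard error: serum-starved minus control (red), ADMA minus serum-starved (green) and ADMA minus control (grey). Filled symbols passed the call threshold. Diamonds mark the contrast of TDO2 and DDC that was known beforehand, and their filling is not read as a test. TDO2, DDC and MAOA lie at 2.34, 1.91 and 1.57 with ADMA against serum-starved cells.

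In the amine branch TPH1, the hydroxylase of serotonin synthesis outside the brain, was not above background. It read 47.2, 50.9 and 34.7 in control cells. It read 17.5, 28.1 and 42.2 in serum-starved cells and 33.5, 17.0, 17.2 and 16.7 with ADMA. It lay under background on 9 of 10 arrays, and its other probe sets on all 10. DDC was bright beside it. DDC, the decarboxylase of the next step, read 2548, 2605 and 2641 in control cells. It read 182, 128 and 142 in serum-starved cells. It read 475, 587, 657 and 546 with ADMA. As with TDO2, the groups did not overlap and the ADMA arrays lay between the others. The serum-starved mean was 17.4-fold below the control mean, a log2 difference of -4.12 (SE 0.14). With ADMA, DDC rose by 1.91 (SE 0.13, limma adjusted p = 5.95e-08) from serum-starved cells and was lower than in control cells by a difference of -2.21 (SE 0.13, adjusted p = 2.52e-09). The ADMA mean lay 46.4% of the way from the serum-starved to the control mean on the log2 scale. The other probe set of DDC gave the same order, with 667, 484 and 676 in control cells. It read 57.4, 77.7 and 19.4 in serum-starved cells, of which 1 lay under background. It read 98.6, 196, 111 and 237 with ADMA. Its log2 differences of -3.77, 1.76 and -2.00 had the same signs as those of the brightest.

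MAOA, the oxidase that prefers serotonin and noradrenaline, fell in serum starvation and was highest with ADMA. It read 755, 757 and 689.7 in control cells. It read 336, 299.8 and 362 in serum-starved cells. It read 847, 1049, 837 and 1273 with ADMA. The groups did not overlap, and all 4 ADMA arrays lay above every control array. MAOA fell in serum starvation by 1.14 (SE 0.14, limma adjusted p = 4.63e-06) on the log2 scale. It was higher with ADMA than in serum-starved cells by 1.57 (SE 0.13, adjusted p = 5.3e-07). Against control cells the difference with ADMA was 0.43 (SE 0.13, adjusted p = 0.0119), just outside the threshold. Without ADMA replicate 1 or 3 it was 0.50 and 0.51 (adjusted p = 0.0059 and 0.00506). Centring the arrays on their medians turned it to -0.08. By the other probe sets of MAOA it was 0.27 and 0.05, and in both of them the control and ADMA arrays overlapped. Control arrays read 279.5 to 307.9 and 178 to 288, and ADMA arrays 288.7 to 428.3 and 183 to 292. Whether MAOA was higher with ADMA than in control cells therefore depended on the scaling, the arrays and the probe set. All 3 probe sets were above background on every array and had the same signs in the other comparisons. Their serum-starved minus control differences were -1.14, -0.99 and -1.63, and their ADMA minus serum-starved differences were 1.57, 1.26 and 1.68. MAOB, the related oxidase, was dim and scattered. It read 17.6, 59.2 and 87.9 in control cells, 34.6, 8.23 and 107 in serum-starved cells and 66.7, 120.2, 21.0 and 84.9 with ADMA, with 4 of 10 arrays under background. The groups overlapped, and MAOB did not pass the filter.

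**Figure D3:**
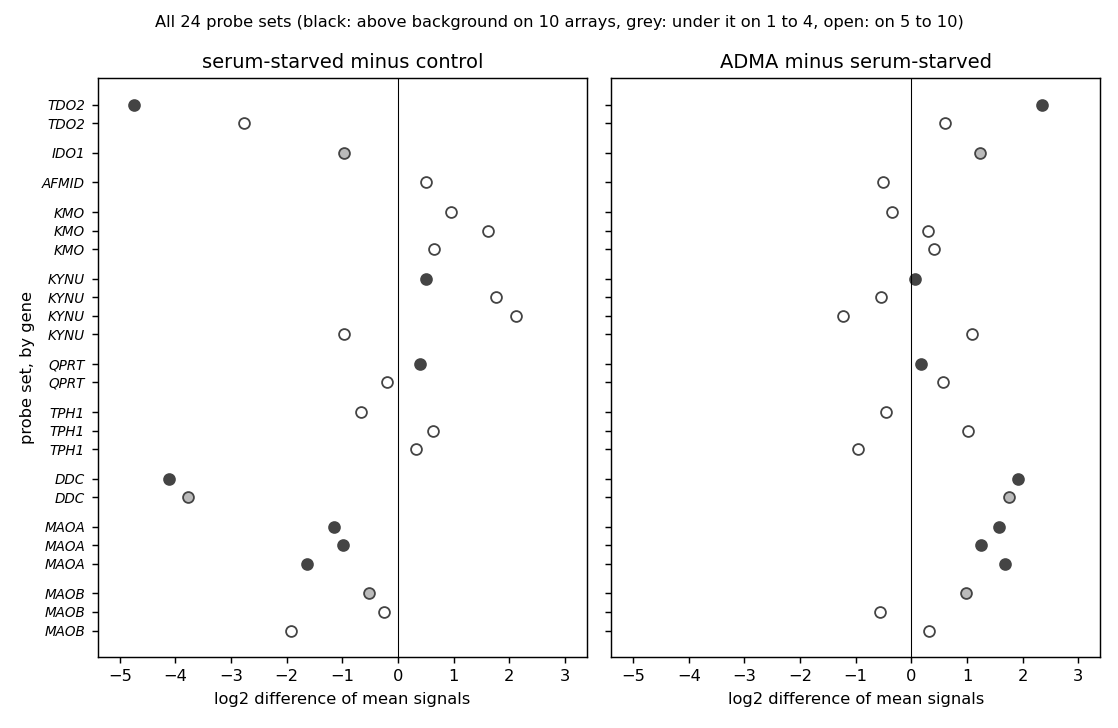
Log2 difference of mean signals (horizontal) of all 24 probe sets, 1 row each, grouped by gene with the brightest first: serum-starved minus control (left) and ADMA minus serum-starved (right). Black points were above background on all 10 arrays, grey points under it on 1 to 4 and open points on 5 to 10; the 3 probe sets of MAOA lie at -1.63 to -0.99 on the left and at 1.26 to 1.68 on the right.

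Ratios between genes within an array do not depend on how the array was scaled. The log2 ratio of MAOA to DDC was -1.94 to -1.75 on the control arrays, 0.89 to 1.34 on the serum-starved and 0.35 to 1.22 on the ADMA arrays. It was higher on every serum-free array than on any control array, and the ranges of both serum-free groups overlapped. That of TDO2 to DDC was 0.43 to 0.62 on the control arrays, -0.38 to 0.14 on the serum-starved and -0.04 to 0.81 on the ADMA arrays. That of MAOA to TDO2 was -2.38 to -2.29, 0.98 to 1.72 and 0.21 to 0.88, and here the serum-starved and ADMA arrays did not overlap. TDO2 and DDC kept closer to each other than either did to MAOA. Over the 10 arrays, after each gene's own mean was subtracted, DDC was the gene nearest to TDO2 among the 12343 others tested, at a Euclidean distance of 1.09 log2 units. CLDN11, under background on 2 of 3 serum-starved arrays, and PCP4 came next, at 1.42 and 1.43. The genes nearest to DDC were FABP5, PCP4 and GJA1, at 0.90, 0.95 and 1.06. These ratios and distances are a description: they rest on the same 3 groups of arrays, and TDO2 and DDC were both known to have fallen. Both genes were listed for their falls from control cells. That the control arrays stood apart in the ratios to MAOA is therefore no separate result.

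The other genes of these pathways were described through 9 lists with 73 genes, of which 67 had a probe set with a single symbol and 49 passed the filter. In serum starvation 13 of the 49 rose and 16 fell, with a median log2 difference of -0.08 against 0.07 over all genes tested. With ADMA against serum-starved cells 9 rose and 6 fell (median 0.12 against 0.03), and against control cells 14 rose and 14 fell (median 0.00 against 0.07). With arrays centred on their medians, which lowered every serum-starved minus control difference by 0.39, the split in serum starvation became 7 higher and 22 lower. That of ADMA against serum-starved cells became 2 and 8, and that of ADMA against control 6 and 26. These shares lie near those of all tested genes.

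Of 6 tested enzymes beside the kynurenine branch 2 fell in serum starvation and none rose. GOT2, a mitochondrial aminotransferase that also accepts kynurenine, fell, at a log2 difference of -1.11 (SE 0.07, limma adjusted p = 4.36e-09), and rose by 0.30 (SE 0.07, adjusted p = 0.00264) with ADMA. GCDH, the glutaryl-CoA dehydrogenase of lysine and tryptophan breakdown, fell, at -1.26 (SE 0.31, adjusted p = 0.00229). Of 6 tested genes of NAD synthesis 2 fell and 1 rose. NAPRT, which makes NAD from nicotinate, fell, at -1.45 (SE 0.14, adjusted p = 2.81e-07) and rose by 0.54 (SE 0.13, adjusted p = 0.00369) with ADMA. NADSYN1, the last enzyme from quinolinate or nicotinate, rose by 0.50 (SE 0.07, adjusted p = 1.45e-05) in serum starvation. Against control cells NADSYN1 was also higher with ADMA, by 0.54 (SE 0.07, adjusted p = 4.69e-06).

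Of the 8 other genes of serotonin, melatonin, catecholamine and histamine synthesis only PNMT, which makes adrenaline, passed the filter. Its control arrays read 54.4 to 147, its serum-starved arrays 33.7 to 86.3, of which 1 was under background, and its ADMA arrays 73.3 to 158. The groups overlapped (limma adjusted p = 0.242 in serum starvation). The cofactor enzymes were bright. Of 5 tested, 3 fell in serum starvation and 1 rose. PCBD1 and QDPR, which recycle the tetrahydrobiopterin used by aromatic amino acid hydroxylases, fell, at -0.88 (SE 0.07, adjusted p = 3.58e-08) and -0.81 (SE 0.06, adjusted p = 3.22e-08). PCBD1 rose by 0.34 (SE 0.07, adjusted p = 0.000782) with ADMA, while QDPR had a difference of 0.20 (SE 0.06, adjusted p = 0.0127).

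Of 10 tested enzymes that break amines down beside the monoamine oxidases, or oxidize their aldehyde products, 5 fell in serum starvation and 3 rose. ALDH1B1, a mitochondrial aldehyde dehydrogenase, fell, at -1.71 (SE 0.26, limma adjusted p = 3.39e-05). AOC2, a copper amine oxidase, is counted among the 3 that rose, with a log2 difference of 1.82 (SE 0.25). Its control arrays read 48.9 to 63.7, of which 1 was under background, and its serum-starved arrays 173 to 234. The control arrays lay below the filter limit of 76.2. AOC2 thus passed the filter only through the serum-free groups, and its difference is given with no test. ALDH2, which oxidizes the aldehydes that monoamine oxidases leave, was named after its values were seen. Control arrays read 9892 to 10408, serum-starved arrays 5341 to 5789 and ADMA arrays 10983 to 12639, an order of groups like that of MAOA. It fell, at -0.87 (SE 0.06, adjusted p = 8.82e-09), and rose by 1.07 (SE 0.06, adjusted p = 9.29e-09) with ADMA. Its difference between ADMA and control cells, 0.20 (SE 0.06, adjusted p = 0.0068), was under the 1.2-fold limit.

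Among 4 tested transporters 1 fell and 1 rose in serum starvation. SLC16A10, a carrier of aromatic amino acids, fell, at -1.82 (SE 0.17, limma adjusted p = 2.66e-07), and had 0.36 (SE 0.16, adjusted p = 0.0897) with ADMA against serum-starved cells. SLC7A8, a neutral amino acid exchanger, differed little in serum starvation, at 0.10 (SE 0.18, adjusted p = 0.64), and rose by 1.15 (SE 0.17, adjusted p = 8.79e-05) with ADMA. The cytosolic tryptophanyl-tRNA synthetase WARS1 rose by 0.80 (SE 0.07, adjusted p = 1.13e-07) in serum starvation, while the mitochondrial WARS2 fell, at -0.68 (SE 0.15, adjusted p = 0.00104). Neither passed the threshold with ADMA against serum-starved cells.

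Of 8 genes for the aryl hydrocarbon receptor and its targets 3 rose in serum starvation and 1 fell, and 2 fell with ADMA. AHR itself read 969.7 to 1157 on control, 2724 to 3155 on serum-starved and 1289.7 to 1636 on ADMA arrays, so that the groups did not overlap. It rose by 1.43 (SE 0.10, limma adjusted p = 8.94e-09) and fell with ADMA, at -0.94 (SE 0.09, adjusted p = 2.23e-06). TIPARP, a target and feedback inhibitor of AHR, rose by 1.73 (SE 0.07, adjusted p = 3.5e-11) and fell with ADMA, at -0.81 (SE 0.07, adjusted p = 3.49e-07). AHRR, the repressor of AHR and one of its targets, also rose, by 1.28 (SE 0.11, adjusted p = 1.09e-07), but was not called with ADMA against serum-starved cells, at -0.14 (SE 0.11, adjusted p = 0.319). NQO1, a quinone reductase, fell, at -0.48 (SE 0.10, adjusted p = 0.000655), and had -0.13 (SE 0.09, adjusted p = 0.305) with ADMA. The classical targets CYP1A1 and CYP1B1 did not pass the threshold, with serum-starved minus control differences of 0.49 (SE 0.40) and -0.08 (SE 0.10). Of 7 genes on the interferon-gamma route to IDO1 3 rose in serum starvation and 1 fell. The kinase JAK1 rose by 1.29 (SE 0.06, adjusted p = 2.77e-10) and fell with ADMA, at -0.40 (SE 0.06, adjusted p = 0.000106). The transcription factor IRF8 went the other way, at -1.62 (SE 0.16, adjusted p = 4.57e-07) and 0.61 (SE 0.15, adjusted p = 0.00477).

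**Figure D4:**
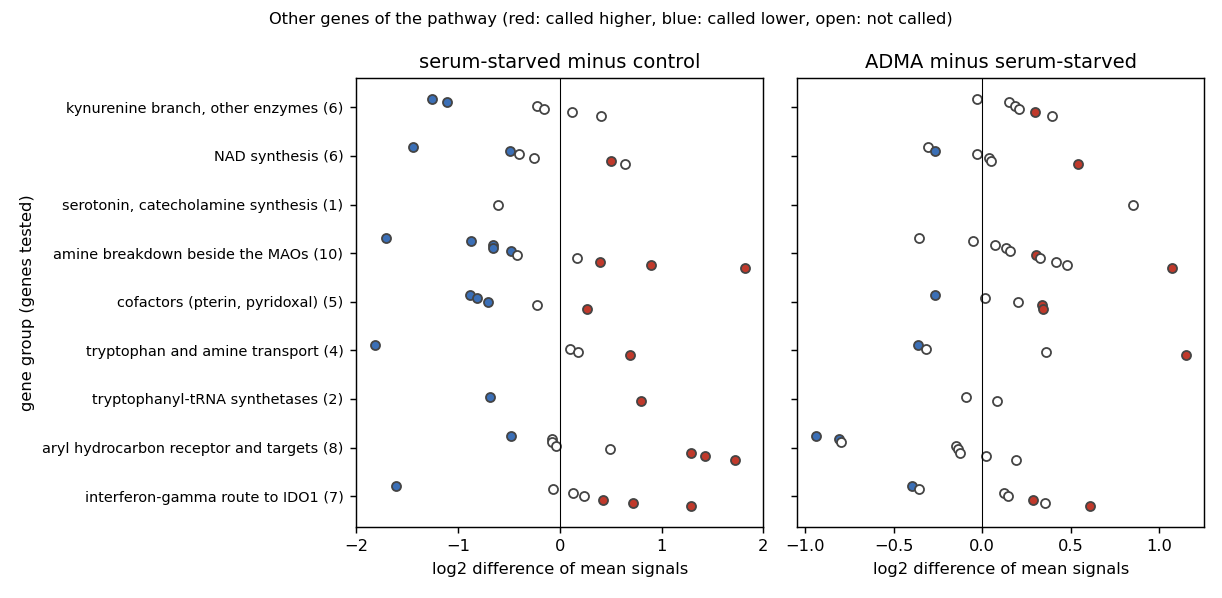
Log2 difference of mean signals (horizontal) of the 49 tested genes in 9 pathway lists, 1 point per gene: serum-starved minus control (left) and ADMA minus serum-starved (right), on different scales. Red points were called higher, blue lower and open points neither, 13 and 16 of the 49 on the left and 9 and 6 on the right.

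Cell type markers were read beside these genes. All 10 markers of colon epithelium passed the filter, led by KRT18, and their summed signal was 77467 to 78369 in control, 96886 to 111119 in serum-starved and 123153 to 140922 in ADMA-treated cells. In serum starvation 5 of the 10 rose and 2 fell, where 30.3 and 27.3% of all tested genes did. With ADMA against serum-starved cells 7 rose and 1 fell, where 15.7 and 13.8% of all tested genes did. LGALS4, KRT20, CDH1, KRT19 and KRT8 rose in serum starvation, by 1.39, 0.99, 0.97, 0.68 and 0.32. All of these but CDH1 were higher still with ADMA. The 2 that fell in serum starvation were CDX1 and CDX2, transcription factors of the intestinal epithelium. Their differences were -2.04 (SE 0.25, limma adjusted p = 4.69e-06) and -1.33 (SE 0.10, adjusted p = 1.95e-08). They rose with ADMA by 1.55 (SE 0.24, adjusted p = 0.000122) and 1.21 (SE 0.09, adjusted p = 2.35e-07). Against control cells their differences with ADMA, -0.49 (limma adjusted p = 0.0909) and -0.12 (adjusted p = 0.278), did not pass the threshold. Their ADMA arrays overlapped with the control arrays, unlike those of TDO2 and DDC. None of 10 enteroendocrine markers passed, CHGB having the highest mean over all arrays, and 6 lay under background on every array. Their sums were 152 to 178, 218 to 249 and 231 to 304. INSM1, one of them, was under background on all 3 control arrays and above it on 2 of 3 serum-starved arrays (53.5 to 64.4) and 3 of 4 ADMA arrays (57.4 to 97.2). CHGA went the other way, under background on 2 of 3 control arrays and on all serum-starved and ADMA arrays. SCG5 was under background on 2 of 3 control, 2 of 3 serum-starved and 3 of 4 ADMA arrays. CHGB was under it on all control and ADMA arrays and 2 of 3 serum-starved arrays. Signals this low give no direction for the list. Of 10 hepatocyte markers only CYP3A4 passed, with sums of 426 to 541, 875 to 1054 and 791 to 988, of which the serum-starved and ADMA sums overlapped. CYP3A4 alone read 139 to 165 on control, 449 to 664 on serum-starved and 288 to 475 on ADMA arrays, so the sums do not show the list as a whole. Of 9 macrophage and monocyte markers 3 passed and 4 lay under background on every array. Their sums of 629 to 987, 4280 to 4908 and 1677 to 2383 were carried by LYZ. Of 6 fibroblast markers 3 passed, led by COL1A1, with sums of 797 to 939, 722 to 889.9 and 635 to 855. LUM rose by 1.47 (SE 0.24, adjusted p = 5.62e-05) in serum starvation and fell with ADMA, at -0.90 (SE 0.22, adjusted p = 0.00405). COL3A1, which did not pass, read 119.6 to 233 on control arrays and was under background on all 3 serum-starved and all 4 ADMA arrays. The median signal of the arrays was 60.7 to 73.1 in control, 87.5 to 90.7 in serum-starved and 91.9 to 98.1 in ADMA-treated cells. The 3′ to 5′ signal ratio of ACTB, a sign of RNA quality, was 1.01 to 1.08, 1.13 to 1.23 and 1.02 to 1.05. The mean signal of the 28S ribosomal RNA control probe sets was 345 to 429, 1068 to 1653 and 671 to 935, with no overlap and in the reverse order of TDO2 and DDC. The part of these in the differences was not tested.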

How the data were processed

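RNA of each of the 10 LoVo samples was hybridized to 1 Affymetrix HG-U133 Plus 2.0 array. The authors calculated the deposited intensities with MAS 5.0, and each array has the same 2% trimmed mean of 500.1. Of 54675 probe sets 41091 carry 1 gene symbol in the platform annotation, 1801 several and 11721 none, beside 62 controls. Symbols were updated by Entrez ID through RefSeq, which matched 41037 probe sets.

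The log2 of each intensity was taken with no pseudocount. Genes whose brightest probe set reached the 50th percentile of mean signals entered 1 fit over all 10 arrays with the limma package (version 3.58.1, R 4.3.3; lmFit and eBayes, trend set), with Benjamini-Hochberg adjustment, at the thresholds of the study's SAM analysis, which was not run. The step was tested on simulated data. The named genes were all members and the 2 called genes of each list with the largest difference (or its brightest). The 3 nearest profiles of TDO2 and DDC and the brightest marker of each list were named too. ALDH2, CYP1A1, CYP1B1, AHRR, NQO1, INSM1, CHGA, SCG5, LUM and COL3A1 were added after their values were seen. The same holds for the named markers of colon epithelium other than KRT18. Members and lists were chosen with earlier results of these data known. Alternatives changed scaling, filter, pseudocount (16), probe sets, variance model, arrays in the fit, pairing and dim signals, or left out each array. The plots were made in matplotlib 3.10.9 under Python 3.11.15. The number of arrays limits the precision, and correlations between arrays of a group were 0.937 to 0.946.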

Additional observations from a re-analysis of the deposited data

Results flagged for a closer look

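TPH1 in ADMA-treated cells stood apart on 1 array. ADMA replicate 1 read 33.5 against 16.7 to 17.2 on the other 3, so that its gap to the nearest array was 0.961 of the range of the group on the log2 scale, above the 95% critical value of Dixon's test for 4 arrays. All 4 values lay under the background level. Among the 27 genes so examined, chance alone would mark about 1 in 20 groups.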

How the results depend on the processing

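The calls of MAOA in serum starvation, of TDO2, DDC and MAOA with ADMA against serum-starved cells, and of TDO2 and DDC with ADMA against control held under all 23 alternatives run. The log2 differences of MAOA lay between -1.53 and -1.07 in serum starvation, and those of TDO2, DDC and MAOA with ADMA between 1.47 and 2.49, 1.80 and 2.06, and 1.45 and 1.65. The serum-starved minus control values of TDO2 and DDC, by which they were chosen, ranged from -5.14 to -3.75 and from -4.51 to -3.94. Over the tested members and comparisons 386 alternative values kept their direction and side of the threshold. The serum-starved minus control values of TDO2 and DDC are among the 386, but nothing is read from these, since the genes were chosen by them. Another 5 values passed the threshold newly (IDO1 and MAOA, given above) and 8 changed sign, none of them past the threshold. With quantile normalization KYNU had -0.0317 with ADMA against serum-starved cells and IDO1 -0.21 with ADMA against control. With arrays centred on their medians they had -0.0447 and -0.23, and MAOA -0.0775 with ADMA against control. With each array left out in turn, KYNU ranged from -0.0215 to 0.18 and QPRT from -0.0038 to 0.32 with ADMA against serum-starved cells. Leaving out arrays also moved the count of members higher with ADMA than in control cells between 0 and 1, and that of pathway genes higher with ADMA than in serum-starved cells between 5 and 10, with 5 reached without serum-starved replicate 1 or 2.

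With arrays centred on their medians 7 pathway genes were higher in serum starvation, 2 with ADMA against serum-starved cells and 6 with ADMA against control, where 26 were lower. Over all genes this gave 2014 higher and 5184 lower in serum starvation against 3738 and 3372 as deposited, 901 against 1935 higher with ADMA against serum-starved cells, and 1209 and 6101 against 3284 and 2859 with ADMA against control. Without probe sets ending in _x_at or _s_at, which leaves fewer genes, 7 pathway genes were higher in serum starvation, 3 lower with ADMA against serum-starved cells, and 8 higher and 8 lower with ADMA against control, and 1286 of all genes were higher with ADMA against serum-starved cells. Averaging all probe sets of each gene gave 942 lower there against 1704. The cause was not tested. Where a filter left KYNU, QPRT or IDO1 out, no value was had.

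The replicate number as a block changed no call of a member, with 3, 3 and 2 members called in the 3 comparisons. Pathway genes higher and lower were 14 and 16, 6 and 4, and 14 and 13 under this block. Same-numbered arrays deviated together by correlations of -0.07 to 0.10, and 2 of 9 arrays were closest to their own number, so the numbers were not taken as a pairing. Signals near background limit what can be said of AFMID, KMO, TPH1 and MAOB.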
